A study of Homo sapiens with 2 samples.

Results

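ESR1, on the long arm of chromosome 6, encodes oestrogen receptor α (ERα), and the peaks of ERα at this gene are places where the receptor was found on its own locus. Every peak of the deposited list whose centre lay on chromosome 6 from 151700000 to 152600000 (hg19), a window of 900 kb around the gene, was taken. There were 9 such peaks of 12688 in all. The list came from T47D, an established ERα-positive human breast cancer line. It compares 1 ERα chromatin immunoprecipitation (ChIP) library, made with the H-20 antibody, with 1 input library of sonicated DNA that saw no antibody. Both came from cells kept for 48 h in medium without steroids and then exposed for 45 min to 17β-estradiol, the hormone that activates ERα, at 10 nM. There was no replicate and no library without estradiol, so the values describe occupancy after the hormone, carry no replicate error and were given no test between samples.

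ERα is a nuclear receptor that dimerises on estradiol binding and occupies DNA directly at oestrogen response elements or through partner factors, often at enhancers far from any gene start. Its own gene is transcribed from several alternative starts that share the coding exons downstream, and tissues differ in which of these starts they use. In MCF-7 cells, another ERα-positive breast cancer line, estradiol is known to lower ESR1 RNA. RNA was not measured here.

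ESR1 is on the plus strand. In hg19 its most upstream start lies near 151977826, the start of the main coding form near 152128814 and the end of the gene near 152424409. The 9 peaks therefore fall into places named here by the distance of their centres before the main start. The protein-coding neighbours are CCDC170 on the left and SYNE1 on the right in RefSeq on GRCh38.p14. CCDC170 encodes a coiled-coil protein, and SYNE1 encodes nesprin-1, a large protein of the nuclear envelope. Exons and neighbouring genes were not placed on hg19, so no peak was called exonic, intronic or part of CCDC170.

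The promoter sequences of the main and of the most upstream start are shown because 1 peak lay over the main start and 3 lay just after the most upstream one. RefSeq lists 6 ESR1 starts on GRCh38.p14. Entry 5 of these lies 151010 bases after entry 1, and the hg19 starts lie 150988 bases apart, a difference of 22 bases. On this spacing, entry 1 was matched to the most upstream start and entry 5 to the main start. Each line gives the 250 bases before the start, 5′ to 3′ on the plus strand, at chr6:151807432-151807681 for the main start and chr6:151656422-151656671 for the most upstream start of GRCh38.p14. Capitals mark a GC box (GGGCGG, read on either strand), the sequence bound by SP1.

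ESR1 main start: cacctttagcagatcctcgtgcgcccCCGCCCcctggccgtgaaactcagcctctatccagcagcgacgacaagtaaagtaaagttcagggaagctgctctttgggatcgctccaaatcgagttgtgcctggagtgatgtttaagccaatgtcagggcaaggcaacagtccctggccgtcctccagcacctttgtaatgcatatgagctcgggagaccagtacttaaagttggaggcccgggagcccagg

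ESR1 most upstream start: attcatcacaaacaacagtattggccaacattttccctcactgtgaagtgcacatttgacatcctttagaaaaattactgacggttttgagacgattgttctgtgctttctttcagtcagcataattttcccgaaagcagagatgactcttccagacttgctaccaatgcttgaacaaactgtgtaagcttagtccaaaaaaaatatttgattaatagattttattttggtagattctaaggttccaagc

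In the 250 bases before the main start there was 1 GC box, at 224 to 219 bases before the start on the minus strand, and in those before the most upstream start there were 0. The full oestrogen response element GGTCANNNTGACC, its single arm GGTCA, the AP-1 site TGANTCA and the forkhead core TGTTTAC, each read on both strands, had no match in either sequence. All 6 ESR1 entries were searched. The arm was found in 1 of them, entry 2, at 29 to 25 bases before its start on the plus strand. The GC box was found in 2, entries 4 and 5. None held the full element, the AP-1 site or the forkhead core. The arm is part of the full element, so these searches overlap. Among 35116 RefSeq promoter entries of the same length, 42.6% held the GC box, 32.6% the arm, 6.57% the AP-1 site, 2.98% the forkhead core and 0.0399% the full element. The main start was preceded by 56% G and C and the most upstream one by 36%, against a median of 58% over all entries. Of the 766 bp of the peak over the main start, the 250 bases before that start were read. By position, the peak also holds part of the 250 bases before entry 4, whose start lies 486 bases before the main one. That part includes the GC box of entry 4, 74 to 69 bases before its start on the minus strand. The rest of the peak was not searched. By position relative to its start, the sequence printed for the most upstream start lies under no listed peak. The sequence under the other peaks was not read, because no hg19 genome was used here.

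The listed ERα peaks at ESR1 lay on the upstream side of the main start. All 9 peaks had centres before the main start. Of these, 5 lay before the most upstream start and 4 between that start and the main one, while 0 had a centre in the 295.6 kb from the main start to the gene end and 0 in the 175.6 kb after it. The window reached 429 kb before the main start and 471 kb after it. The strongest peak of the locus stood 191 kb before the main start, outside the gene. The peak over the main start scored lower than 4 of the other peaks.

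**Figure D1:**
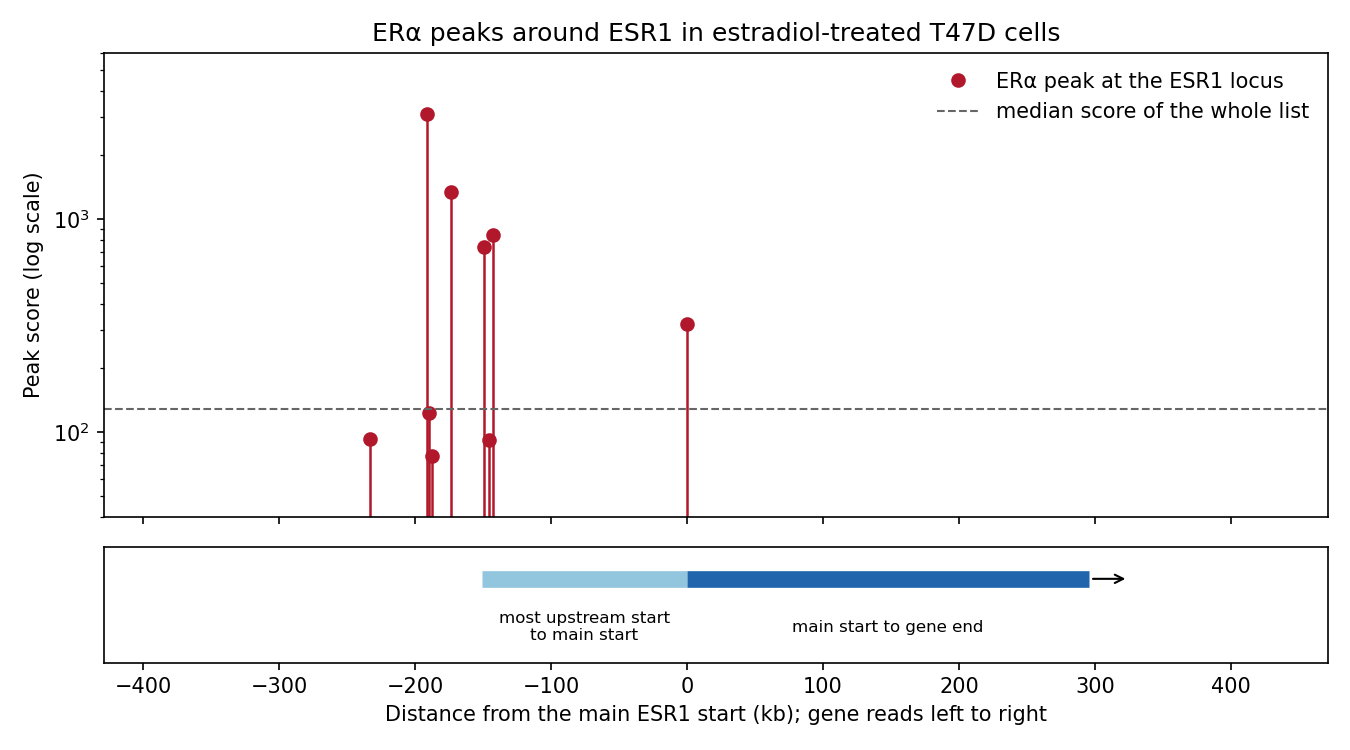
Score of each of the 9 ERα peaks (points, log scale) against the distance of its centre from the main ESR1 start in kb, with the 2 stretches of the gene drawn below to scale and the median score of the whole list as a dashed line. All 9 peaks stand left of or at the main start, and no point lies over the part of the gene to its right.

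The score is the value that the authors' peak caller gave each peak. Its scale is not stated, so it was used only to order peaks within the list. Scores at ESR1 ran from 77.4 to 3100, with a median of 321.8, against a median of 128.84 over the other 605 peaks of chromosome 6 and 128.265 over the whole list. Of the 9 peaks, 5 scored at or above the list median, which 50% of the list does by definition. The share at ESR1 was 55.6% (Wilson 95% interval 26.7 to 81.1%), near that background. Among the 25% of the list with the highest scores there were 4 of the 9 (44.4%, interval 18.9 to 73.3%), so the interval again included the background. These intervals cover counting error only.

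The 5 peaks before the most upstream start held both the highest and the lowest score of the locus. The outermost, 233 kb before the main start (chromosome 6, 151895526 to 151895977), was 452 bp wide and scored 93.1, above 38.1% of the list. It stood alone, with its nearest neighbour 41.7 kb away.

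The peak 191 kb before the main start (151937108 to 151937866, 759 bp) scored 3100. It lies 40.3 kb before the most upstream start. Exactly 235 peaks share this score and 34 exceed it, so 2.12% of the list scored 3100 or more. At ESR1 this was 1 of 9 peaks. On chromosome 6 this peak was among 7 at exactly 3100, with 3 above them. With so many ties it cannot be ranked within that set. The shared value is not the highest of the list, and how the caller came to give it was not tested.

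Next to it came a pair of weak peaks. The peak 190 kb before the main start (151938650 to 151939184, 535 bp) scored 123.09, just under the list median, and its centre lay 1430 bp from that of the strong peak. The peak at 187 kb (151941348 to 151941679, 332 bp) scored 77.4, the lowest value of the locus. The edges of the first pair were 783 bp apart and those of the second pair 2163 bp apart, so the list treats them as separate peaks. Whether they are separate binding sites or the edges of 1 enriched stretch was not tested.

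The peak 174 kb before the main start (151954545 to 151955303) had the second highest score of the locus, 1339.76, above 92.2% of the list, and a width of 759 bp. It lay 22.9 kb before the most upstream start and 13.4 kb from its nearest neighbour.

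Between the starts, 3 peaks had centres 1.56 to 7.92 kb after the most upstream start and 1 lay at the main start. The peak 149 kb before the main start (151979045 to 151979736, 692 bp) scored 739.05, above 85.9% of the list. The peak at 146 kb (151982605 to 151983048, 444 bp) scored 92.04. The peak at 143 kb (151985554 to 151985940, 387 bp) scored 843.7, above 87.4% of the list. A weak peak thus stood between a pair of stronger ones, spaced 3.44 and 2.92 kb apart. None of the 3 covered the most upstream start itself.

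**Figure D2:**
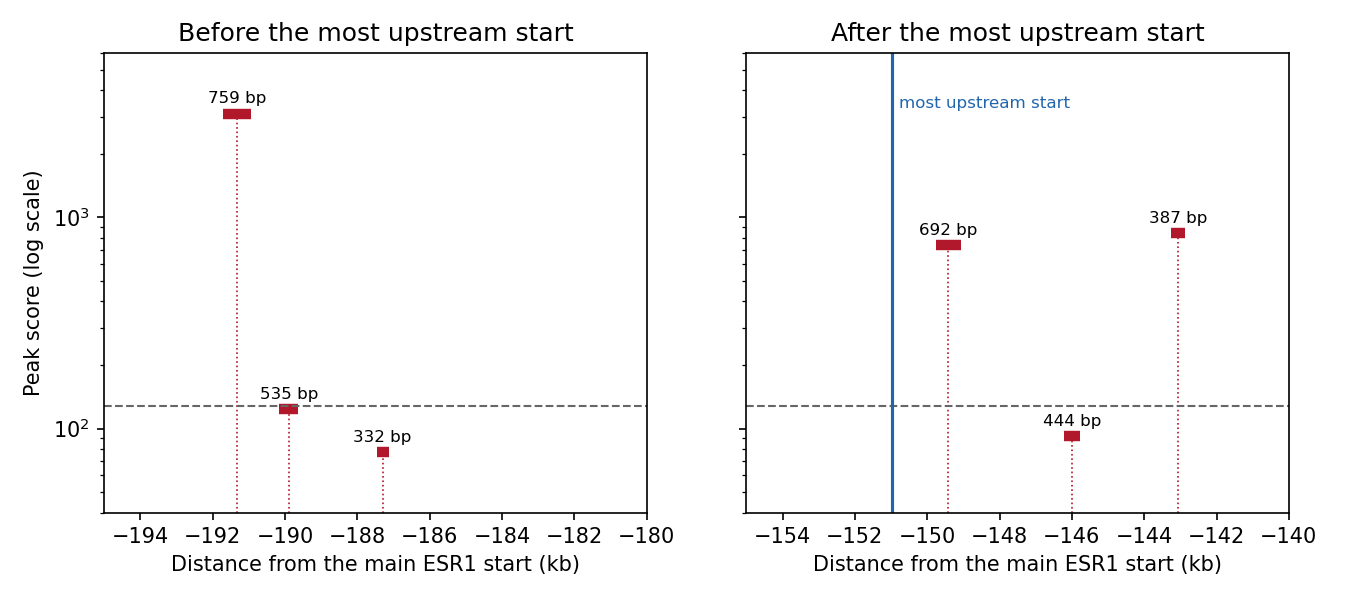
The 2 groups of 3 neighbouring peaks, drawn to scale by position (kb from the main ESR1 start) and width (horizontal bars, labelled in bp) against score (log scale), with the list median as a dashed line. Left, the group before the most upstream start, where the scores were 3100, 123.09 and 77.4 from left to right; right, the group after that start, where the middle peak scored 92.04 and the outer ones 739.05 and 843.7.

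No peak was listed in the next 142.2 kb. The last peak of the locus ran from 152128143 to 152128908 (766 bp), from 671 bases before the main start to 94 bases after it, so it covers that start. By position relative to the start, all 250 bases printed above for it fall within the peak. It scored 321.8, above 73.5% of the list and rank 169 of the peaks on chromosome 6. Its centre, 289 bp before the main start, placed it on the upstream side. RefSeq on GRCh38.p14 lists further ESR1 starts 1977 and 486 bases before the main one and 1425 bases after it. By these distances the peak covers the main start and the one 486 bases before it, but not those 1977 before or 1425 after. The list does not tell which of the covered starts this peak belongs to.

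Past this peak the list was empty for 1.07 Mb, through the part of the gene after the main start and beyond the gene end. The next peak began at 153200807 and scored 88.72, 601 kb outside the window. On the other side, the nearest excluded peak (151680663 to 151681048) lay 19.1 kb outside the window and scored 285.95. The stretch after the main start ranked 39 among the 613 gaps between neighbouring peaks of chromosome 6, and 95.3% of 12624 gaps on chromosomes 1 to 22 and X were shorter. Stretches as long as that from the main start to the gene end often held no peak, whether or not they lie in genes: of 10260 fixed windows of 295.6 kb on these chromosomes, 54.5% held 0 peaks, and on chromosome 6 this was 56.2% of 578. These windows cover full chromosome lengths, so unassembled stretches, which can hold no peak, raise the share without peaks. The list holds only peaks above the caller's threshold and the depth is unknown, so weaker occupancy after the main start of ESR1 was not measured.

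The widths of the peaks differed in relation to their scores. Across the list higher-scoring peaks are wider, so each peak was set beside the 200 peaks nearest to it in score. The peak over the main start was wide for its score: its 766 bp compared with a median of 578 bp, and 79% of the peaks of like score were narrower. The peak at 143 kb went the other way. At 387 bp it was narrower than all 200 peaks of like score, whose median was 648.5 bp. The 191 kb peak, at 759 bp, was narrower than 85.5% of the 234 other peaks with the score 3100, whose median was 1055 bp. How the caller came to give 3100 to so many peaks is not known, so these peaks need not be alike in enrichment. The peaks at 233, 174, 149 and 146 kb lay near the middle, with 45.5 to 59.5% of like-scoring peaks narrower, while the values were 66% for the peak at 190 kb and 16.5% for the one at 187 kb. This comparison was chosen after the values had been seen.

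**Figure D3:**
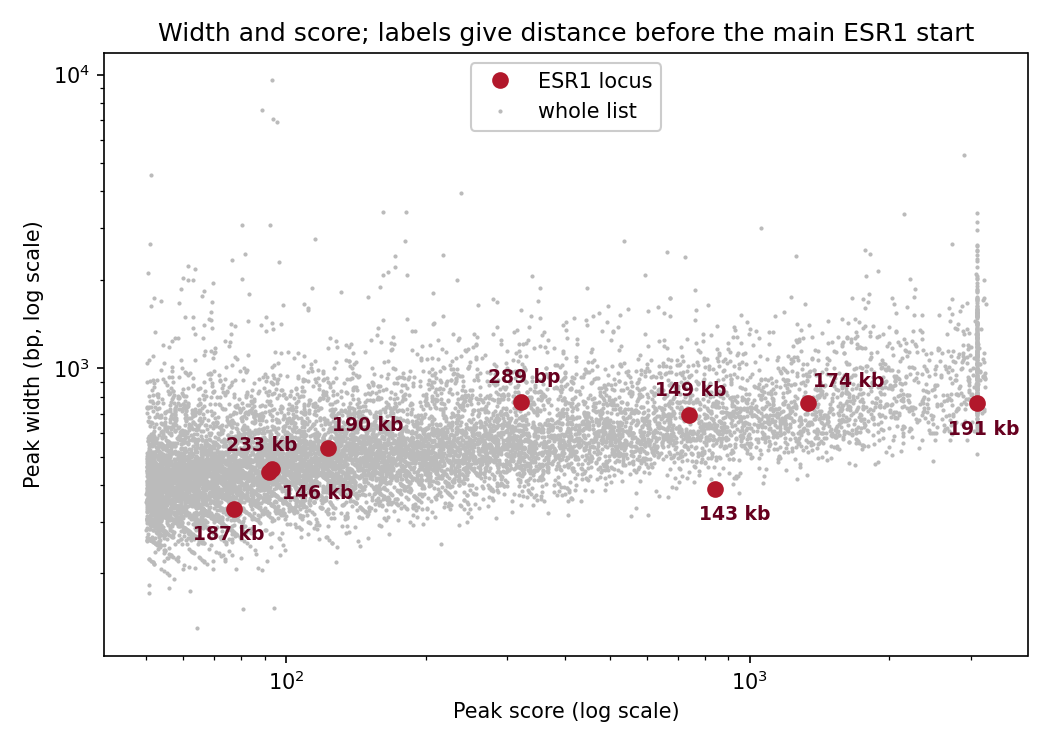
Width (bp, log scale) against score (log scale) of the 9 peaks at ESR1 (red, labelled with the distance before the main start) and of all 12688 peaks (grey). The 143 kb peak lies at the lower edge of the grey cloud, and the peak at 289 bp lies in its upper part.

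Several peaks at ESR1 lay close together before the main start. With centres within 10 kb counted as neighbours, 6 of the 9 had a neighbour (66.7%, Wilson 95% interval 35.4 to 87.9%), against 41.3% of the list, a background that the interval included. Within 5 kb it was the same share of the 9, against 31.5% of the list, which lies below the interval. The interval treats peaks as independent, but the 6 are 2 groups of 3, and having a neighbour is mutual. It is therefore too narrow, and neither comparison decides whether ESR1 differs from the list. When peaks with edges no more than 10 kb apart were joined, ESR1 had 5 regions, 2 of them with 3 peaks each. Across chromosomes 1 to 22 and X, 406 of 9292 regions (4.37%) held exactly 3 peaks, and 720 (7.75%) held 3 or more. The group before the most upstream start spanned 4.57 kb and that after it 6.90 kb. The median was 7.73 kb (quartiles 4.80 and 10.7 kb) for all regions with exactly 3 peaks. The top score of the first group was higher than in 84.7% of these regions and that of the second, 843.7, higher than in 48.5%.

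The surroundings of the 191 kb peak were compared with those of the 235 peaks that score 3100, itself included. It had 2 other peaks within 5 kb, where the median was 1 and 31.1% had at least as many. Within 50 kb it had 7, where the median was 4 and 24.7% had at least as many. Within 200 kb it had 8, which equals the median. The ESR1 peak was thus not at the extreme of this set at any of the 3 distances.

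The window as a whole held more single peaks per Mb than its chromosome. The density at ESR1 was 10.0 peaks per Mb (exact Poisson 95% interval 4.57 to 18.98), against 3.55 (3.28 to 3.85) on the rest of chromosome 6 and 4.16 on the rest of chromosomes 1 to 22 and X. The ratios were 2.81 (1.29 to 5.34) and 2.40 (1.10 to 4.56), and both intervals lay above 1. The background densities use full chromosome lengths, unassembled stretches included, which lowers them and raises every ratio given here. After joining of peaks within 10 kb the ratios were 2.09 (0.679 to 4.88) and 1.82 (0.590 to 4.24), with intervals that include 1, so the excess of single peaks does not hold for joined regions beyond counting error. For peaks at or above the list median the ratio was 3.11 (1.01 to 7.26) to the rest of chromosome 6, above 1, and 2.67 (0.867 to 6.23) to the rest of chromosomes 1 to 22 and X, which includes 1. For the highest-scoring 25% of peaks the ratios were 4.85 (1.32 to 12.4) and 4.28 (1.17 to 10.95), with both intervals above 1. The intervals cover counting error only and treat clustered peaks as independent. They involve no correction for copy number in T47D cells beyond the authors' use of the input. By segment the density was 1.80 peaks per 100 kb (0.584 to 4.20) before the most upstream start and 2.65 (0.722 to 6.78) between the starts, and these intervals overlapped. After the main start it was 0 in both segments.

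**Figure D4:**
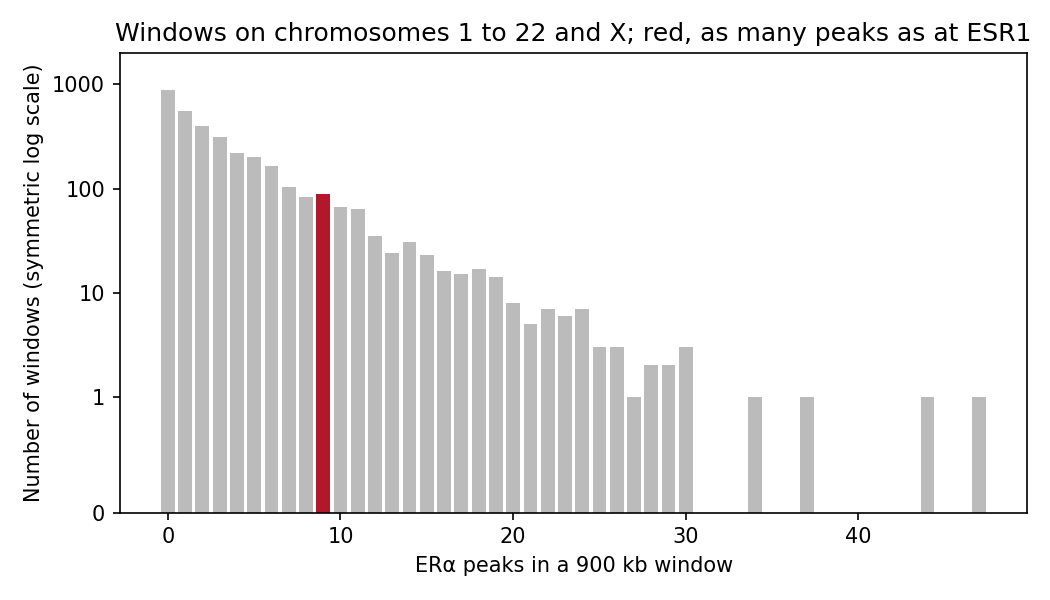
Number of 900 kb windows (symmetric log scale) on chromosomes 1 to 22 and X by the number of ERα peaks they hold, with the windows that hold 9 peaks, as many as at ESR1, in red. The red bar stands for 89 windows, on the falling slope of a distribution that reaches 47 peaks.

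Set among 3363 fixed windows of 900 kb, the count at ESR1 was above the median of 2 but not rare. At least 9 peaks were found in 445 windows (13.2%), and on chromosome 6 in 20 of 190 (10.5%). The most crowded window held 47 peaks, and on chromosome 6 it held 22. Here too the windows cover full chromosome lengths, unassembled stretches included.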

How the data were processed

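One series file was used, a list of peaks of 1 ERα ChIP library over 1 input library from T47D cells. Each deposited row gives a start, an end, a peak name with the prefix of the MACS caller and a score from the authors' caller, per the file. The submitters' processing notes name CASAVA 1.8, Bowtie 0.12.9, HOMER and hg19 without saying what each did. For the caller, its version, threshold and handling of duplicate reads are not given in the sources used, and the read depth is unknown. Reads that map to several places, or that come from gained copies of a region, could raise or remove peaks, and neither was checked.

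Positions count from 0 in the file and 1 was added to starts. The last peak lay past the chromosome end on 0 of 24 chromosomes of hg19 (GenomeInfoDb 1.38.1) and on 13 of GRCh38. Peaks were assigned by centre, and every peak of the window is named. Intervals are exact Poisson for counts and Wilson for shares. Counting was tested on simulated data. The window and measures were chosen with earlier results of these data known. The comparisons of widths, of regions with 3 peaks, of gaps and of the surroundings of peaks scoring 3100 were added after the values at ESR1 had been seen. Promoter sequences come from RefSeq on GRCh38.p14, and no coordinate was carried between builds. Scripts ran in Python 3.11.15 with SciPy 1.17.1, pandas 2.3.3 and NumPy 2.4.6.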

Additional observations from a re-analysis of the deposited data

How the results depend on the processing

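No paired analysis was possible because neither library has a replicate, and none could be left out. The 9 peaks became 5 at or above the list median, 4 among the highest-scoring 25% and 5 after merging within 10 kb; merging within 500 bp and narrowing the window by 100 kb on each side left 9, and widening it gave 10. Before the most upstream start the 5 peaks became 2, 2 and 3 under the first 3 of these settings, and between the starts the 4 became 2 among the highest-scoring 25% and 2 after merging within 10 kb. From the main start to the gene end the count of 0 became 1 when any overlap of 1 bp counted or the borders moved 5 kb to the left, because the peak over the main start then falls there. The density relative to the rest of chromosome 6 ran from 2.09 to 4.85 and relative to the rest of chromosomes 1 to 22 and X from 1.82 to 4.28; after merging within 10 kb both intervals included 1. With a distance of 5 kb, 66.7% of the peaks had a neighbour, against 31.5% of the list, and with 50 kb it was 88.9%, against 67.9% of the list. Of 47 alternative values, 36 stayed within their limits (1.5 times for counts, the main interval for shares and densities) and 11 did not.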
